A study of Glycine max with 2 samples.

Results

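Transcript signals of MYB transcription factors were set side by side for seedlings of soybean cultivar Williams 82 given salt and seedlings given a mock treatment. The members are the soybean probe sets that the array annotation assigns to exactly 1 gene with a symbol made of MYB and a number. The rule found 65 genes, of 6029 named genes on the array, and they are read by 102 of 37593 soybean probe sets. The seedlings were 14 days old and received 150 mM NaCl in the salinity group or water alone in the mock group. Both groups were otherwise grown alike, in vermiculite at 25 °C under a photoperiod of 16 h. RNA taken 1, 3, 6, 12 and 24 h into treatment was mixed within each group, 0.5 µg from each time, which gave 1 salinity pool and 1 mock pool. The design text also lists samples from the start of treatment. Each pool was hybridised to 1 Affymetrix soybean array, so there are no replicates, no test was possible, and every difference below describes these 2 arrays. The values in each pool average over times, plants and the organs taken, which the labels do not name, so fewer cells of a type and less RNA per cell cannot be told apart.

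MYB proteins bind DNA through a domain of helix-turn-helix repeats, and most of the plant family carries a pair of these repeats. Plants use them to switch on flavonoid and lignin synthesis, to shape epidermal cells, to run the circadian clock and to respond to drought, salt and abscisic acid. The soybean numbers were given within soybean, so MYB124 of soybean is not the counterpart of the Arabidopsis gene with the same number.

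The values are log2 signals of the deposited table. A gene counted as measured when a probe set lay above a background bound, which is 4.88 for the salinity array and 4.94 for the mock array. The bound is the 95th percentile of the probe sets that the array carries for other organisms. Signals under the bound were raised to it, so a gene above it on 1 array has a ratio that is a limit ("at least"). The brightest probe set stood for a gene. Probe sets differ in how strongly they bind, so signals of different genes are not compared as transcript levels. Of 5893 measured genes, the median log2 ratio of salinity over mock was -0.0033. All 6 photosynthesis marker genes were above the bound, and the chlorophyll-binding protein gene CAB3 had a log2 signal of 14.90 in the salinity pool against 15.14 in the mock pool. Of 14 seed markers 5 were measured, 3 of them on both arrays. These 3 were KTI-2 (11.59 in the salinity pool, 11.78 in the mock pool), KTI-3 (11.68 and 12.04) and BG7S-1 (6.22 and 5.66). The glycinin gene GY1 lay below the bound on both arrays. Of 18 nodule markers, taken by symbol or synonym, 8 were measured. They included SS (14.16 in the salinity pool, 14.32 in the mock pool), NOD33 (13.05 and 13.51), N-36A (11.42 and 10.20) and ENOD55-2 (5.47 and 7.23). Below the bound on both arrays were N-21, N-22, N-23, N-26, N-26B, N-44, N-56, N-70 and ENOD93, among others. Photosynthesis markers had a median log2 ratio of -0.28, seed markers 0.11 and nodule markers 0.15, and their part in the MYB values was not tested.

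The MYB family as a whole did not lean to either array. Of the 65 genes, 54 were above the bound on both arrays, 6 on 1 array and 5 on neither. Among the 60 measured genes the log2 ratio was above 0 for 30 and below 0 for 30, beside 49.8% and 50.2% of all measured genes, and its median was 0.01. At least 2-fold higher on the salinity array were 4 genes (6.67%), beside 5.02% of all measured genes. At least 2-fold lower were 3 genes (5%), beside 5.68% of all. Both shares are near the background. At a milder rule of 1.5-fold, 9 genes (15%) were higher, beside 11.4% of all genes, and 11 (18.3%) were lower, beside 14.7%. The remaining 40 had a ratio under 1.5-fold, which is 66.7% of the measured MYB genes, beside 73.9% of all measured genes. Of these 40, 35 passed the bound on both arrays, while 5 passed it on 1 array, so their ratios are limits and the differences may be larger. The middle 50% of MYB genes ran from a log2 ratio of -0.38 to 0.36, and that of all genes from -0.33 to 0.25.

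**Figure D1:**
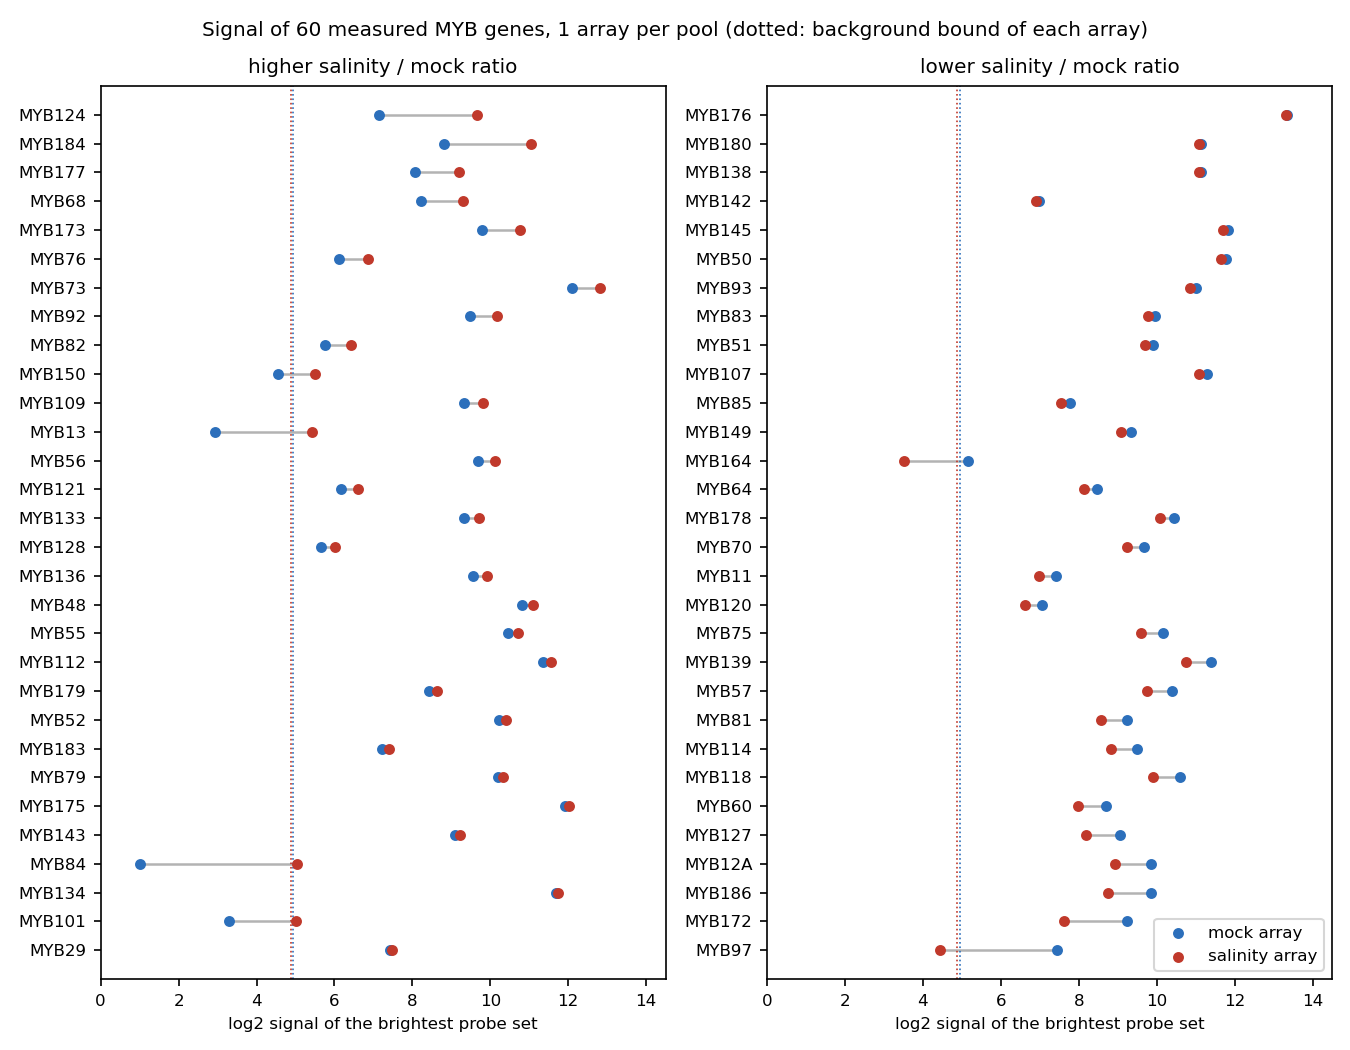
Log2 signal of the brightest probe set of the 60 measured MYB genes on the mock array (blue) and the salinity array (red), 1 array per pool, ordered by ratio, with the 30 genes of higher ratio on the left. Dotted lines mark the background bounds of 4.88 (salinity) and 4.94 (mock). MYB124 and MYB184 show wide gaps with salinity to the right, MYB97 and MYB172 wide gaps with salinity to the left, and most other pairs of points lie close together.

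MYB124 had the highest ratio among the MYB genes above the bound on both arrays. Its log2 signal was 9.66 in the salinity pool against 7.14 in the mock pool, a 5.71-fold difference. It is read by 1 probe set, which carries no suffix for possible cross-hybridisation. Both signals are well above the bounds, so the size of this difference does not rest on a dim value.

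MYB184 came next, with a log2 signal of 11.04 in the salinity pool against 8.81 in the mock pool, 4.67-fold higher. It too is read by 1 probe set of its own. A further probe set, assigned to both MYB184 and MYB84 and so no member, belongs by name to the cluster of the MYB84 sets. It gave 9.09 and 5.06, a 16.3-fold difference. Its mock signal lies just above the bound, which makes that fold uncertain. MYB84, which has been linked to drought tolerance in soybean, has a pair of probe sets of its own. The brighter had a log2 signal of 5.04 in the salinity pool against 1.01 in the mock pool. The other, at 4.48 and 3.88, was below the bound on both arrays. By its own sets MYB84 was therefore at least 1.07-fold higher on the salinity array, which leaves its size unmeasured, and these sets do not tell how much of the shared signal is its own.

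MYB177 and MYB68 were the other genes at least 2-fold higher. MYB177 had a log2 signal of 9.19 in the salinity pool against 8.08 in the mock pool, 2.16-fold higher by its brightest set. Its dimmer set gave 7.84 and 7.30, a log2 ratio of 0.54, so both sets were higher on the salinity array and 1 of them passed 2-fold. MYB68 had 9.29 and 8.21, 2.11-fold higher by its only set. MYB173 lay just outside the rule, at 10.77 and 9.80 and 1.95-fold higher.

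Below these, MYB76 was at 6.86 in the salinity pool against 6.12 in the mock pool (1.68-fold higher). MYB73 was at 12.82 and 12.09 (1.66-fold), with its other set at a log2 ratio of 0.86. In other work soybean MYB73 lowered the activity of GL2, a gene of epidermal hair fate, and raised seed oil. MYB92 was at 10.18 and 9.48 (1.62-fold) and MYB82 at 6.42 and 5.75 (1.60-fold). MYB109 (log2 ratio 0.50), MYB56 (0.44) and MYB121 (0.44) complete the 12 highest genes above the bound on both arrays, and all 3 stayed under 1.5-fold.

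MYB172 was the lowest gene above the bound on both arrays. Its log2 signal was 7.61 in the salinity pool against 9.23 in the mock pool, 3.08-fold lower. A second set gave 7.63 and 8.56, a log2 ratio of -0.93. Both sets carry the suffix for possible cross-hybridisation, and the only set without it lay below the bound, at 3.83 and 4.22. MYB186 had 8.76 and 9.87, 2.15-fold lower by its only set, and is the member just inside the 2-fold rule on the lower side.

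MYB97 was also lower on the salinity array, where its signal was not above the bound. It had a log2 signal of 4.44 in the salinity pool against 7.44 in the mock pool, at least 5.89-fold lower. With the bound at the 99th percentile in place of the 95th, its log2 ratio was -1.79. MYB164, whose probe set comes from the same probe set cluster, had 3.52 and 5.17. In both genes of the cluster the mock signal passed the bound and the salinity signal did not, with MYB164 at least 1.22-fold lower.

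MYB12A, a regulator of flavonol and isoflavone synthesis, lay just outside the rule. Its brightest set gave 8.92 in the salinity pool against 9.86 in the mock pool, 1.92-fold lower. MYB127 was at 8.18 and 9.06 (1.83-fold lower), and MYB60 at 7.97 and 8.70 (1.66-fold). MYB118 was at 9.90 and 10.61 (1.64-fold), and the clock gene MYB114 at 8.83 and 9.50 (1.59-fold). MYB81 (8.57 and 9.23) was 1.58-fold lower, MYB57 (9.76 and 10.40) 1.57-fold, and MYB139 (10.74 and 11.38) 1.56-fold. MYB75 (log2 ratio -0.54) and MYB120 (-0.44) end the 12 lowest, and both stayed under 1.5-fold.

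**Figure D2:**
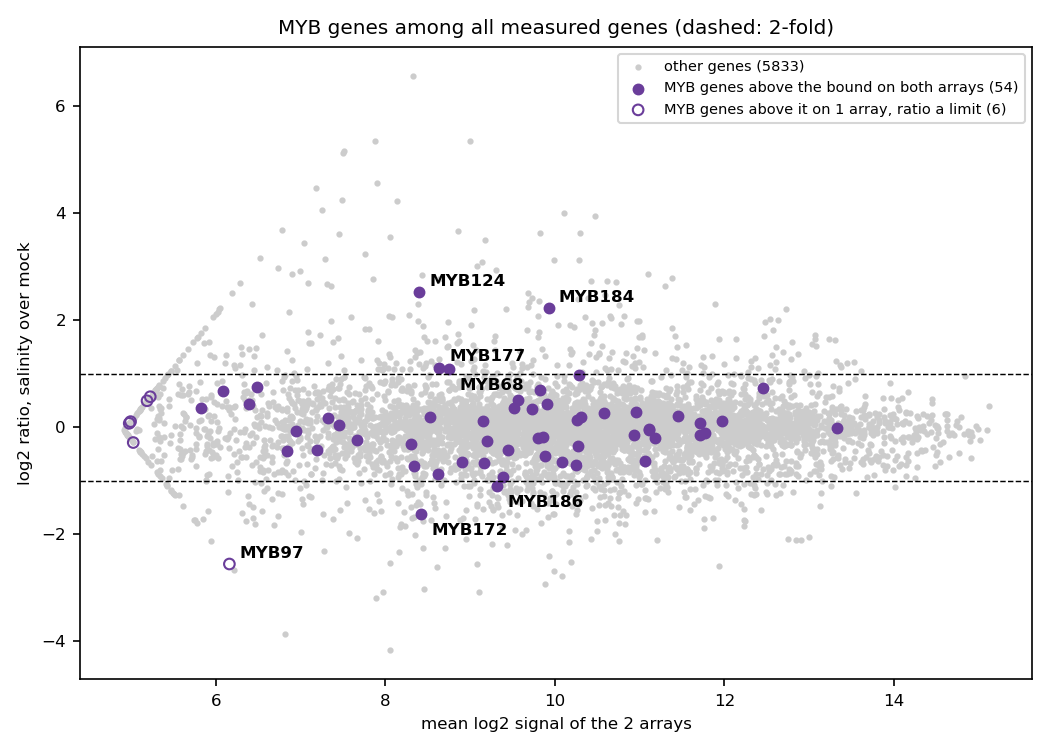
Log2 ratio of salinity over mock against the mean log2 signal of the 2 arrays, for 60 measured MYB genes (purple) and 5833 other measured genes (grey). Open circles are MYB genes above the bound on 1 array, whose ratio is a limit, and dashed lines mark 2-fold. The 7 labelled MYB genes lie beyond the dashed lines and the other MYB points between them.

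Of the 6 genes above the bound on 1 array, 4 were above it on the salinity array alone. MYB150 had a log2 signal of 5.51 in the salinity pool against 4.56 in the mock pool, at least 1.48-fold higher. MYB13 had 5.43 and 2.92, at least 1.40-fold, and its other sets were listed at 0 on the salinity array. MYB101 had 5.01 and 3.29, at least 1.05-fold, and MYB84 is described above. These signals are so near the bound that the limits say little about size. MYB14, MYB98, MYB99, MYB181 and MYB185 lay below the bound in every probe set on both arrays and give no ratio. MYB14 has been tied to plant architecture and drought tolerance in soybean.

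Soybean MYB genes that other work has connected with salt, drought or related stress were then read as a group. The group of 9 was drawn from general knowledge with these values in view, so its direction is a description and no support for anything. Of its 8 measured genes, 7 had a log2 ratio above 0 and 1 below, beside 49.8% and 50.2% of all measured genes. Their median was 0.72, beside 0.01 for the family. MYB84 is 1 of the 7, and its ratio of 0.10 is a limit from a salinity signal near the bound. MYB76, MYB92 and MYB177, which raised salt and freezing tolerance when placed in Arabidopsis, had ratios of 0.75, 0.70 and 1.11. MYB68, tied to salt and alkali resistance, had 1.08. MYB173 and MYB183, whose phosphorylation has been studied in salt-treated soybean roots, had 0.97 and 0.18. MYB118, tied to drought and salt tolerance, was the 1 measured gene of the group below 0, at -0.71. The group is not a full list of MYB genes with such a link. MYB183 shares a probe set with MYB143, which gave a ratio of -0.13, on the other side of 0 from its own set.

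Flavonoid synthesis is the best-known output of plant MYB factors. In soybean the shared early steps feed an isoflavonoid branch, which makes antimicrobial glyceollins, and a branch to flavonols, anthocyanins and proanthocyanidins. The 4 MYB genes taken here as regulators stayed under 2-fold. They were drawn from general knowledge and are not a full list of MYB genes with such a role. MYB176, which binds the promoter of the chalcone synthase gene CHS8, had a log2 signal of 13.33 in the salinity pool against 13.34 in the mock pool. MYB29, an activator of isoflavonoid genes, had 7.47 and 7.44, with its other set at a log2 ratio of -0.34. MYB133, another isoflavonoid activator, had 9.70 and 9.34, and its 3 sets gave ratios between 0.23 and 0.36. MYB12A was lower by all 3 of its measured sets, at -0.94, -0.53 and -0.41.

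The SD of the log2 ratios was 0.98 for the enzyme genes of the pathway and 0.56 for these MYB genes. With 4 MYB genes such a spread is uncertain. By symbol, 28 measured genes were listed for phenylpropanoid entry and flavonoid enzymes, and a symbol does not show that each product is an active enzyme. Of these, 5 were at least 2-fold higher, beside 5.02% of all genes, and 4 at least 2-fold lower, beside 5.68%. With suffix-marked probe sets left out, 22 genes remained measured and 1 of them was 2-fold higher. Split by branch with values in view, all 7 isoflavonoid genes had a ratio above 0, with a median of 0.80. Among them were the isoflavone synthase gene IFS2 (14.05 in the salinity pool, 12.86 in the mock pool), the hydroxyisoflavanone dehydratase gene HIDH (13.50 and 12.70) and the chalcone reductase gene CHR5 (13.45 and 11.50). IFS1, IFS2 and CHR5 are each read by 1 set, which carries the suffix for possible cross-hybridisation, and the CHR3 ratio is a limit. CHS8 was at 13.99 and 13.09 by its brightest set, also suffix-marked, a ratio of 0.90. Its other sets gave ratios from -0.05 to 1.16, and the measured CHS1 sets ran from -0.84 to 0.97. Of 7 measured genes of the other branch, 6 were below 0, with a median of -0.88. They included the flavanone hydroxylase gene F3H (11.28 and 12.05), the flavonol synthase gene FLS1 (9.96 and 10.84) and the anthocyanidin synthase gene ANS2 (6.02 and 7.98). MYB12A lay below 0, as did 6 of the 7 genes of the flavonol and anthocyanin branch and 50.2% of all measured genes. All 7 isoflavonoid genes had the opposite sign. MYB176, MYB29 and MYB133 lay within 1.29-fold of equal signal. Whether any of these factors acts on these enzymes was not tested.

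**Figure D3:**
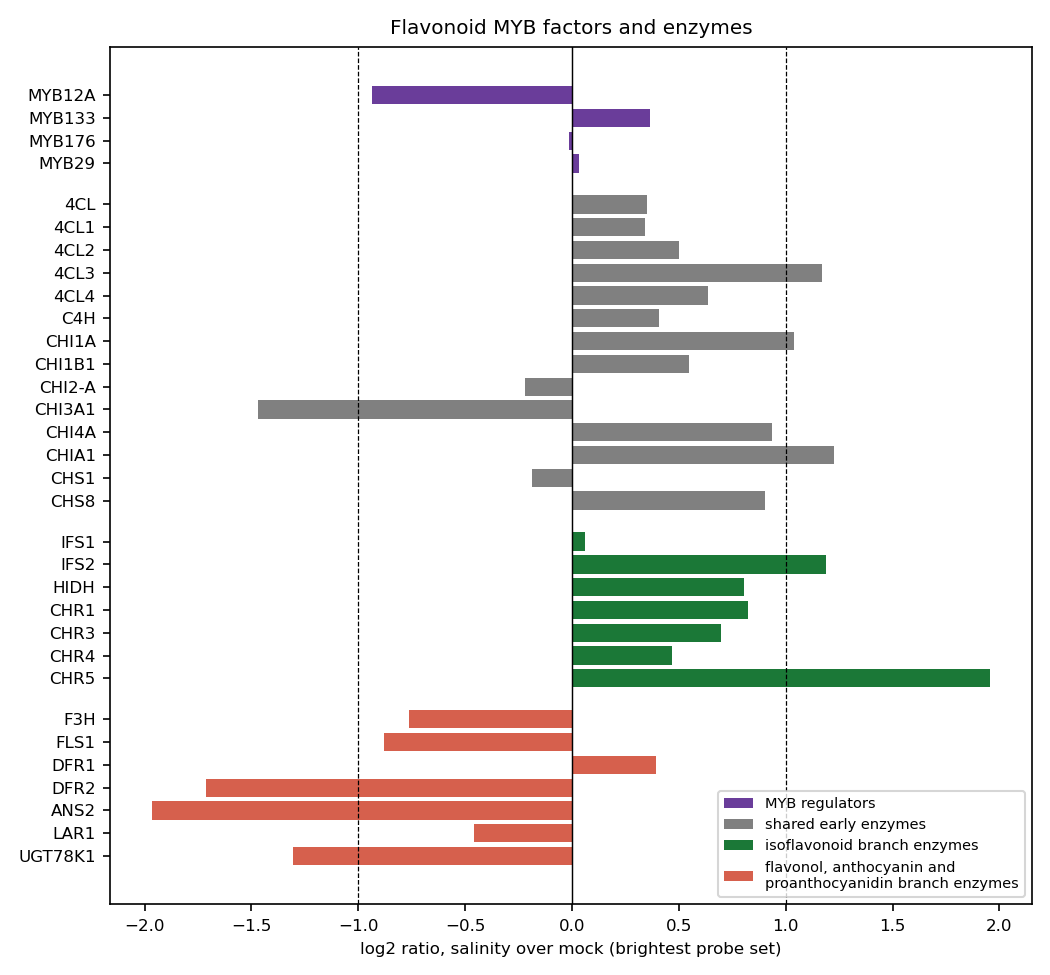
Log2 ratio of salinity over mock by the brightest probe set for 4 flavonoid MYB factors (purple), shared early enzymes (grey), isoflavonoid branch enzymes (green) and flavonol, anthocyanin and proanthocyanidin branch enzymes (red), with dashed lines at 2-fold. Enzymes were listed by gene symbol. The ratios of CHR3, CHI3A1 and LAR1 are limits, since each was above the bound on 1 array. The MYB12A bar points left, and those of MYB176 and MYB29 are near 0. All 7 green bars point right, and all red bars but that of DFR1 (0.39) point left.

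MYB114 is a clock protein of the LHY type, also listed as LCL2. Plant LHY proteins are MYB-related repressors with a morning peak. Among 5 measured clock genes it alone had a ratio below 0, at -0.67. Its close relative LCL3 was at 9.23 in the salinity pool against 9.10 in the mock pool, and the brightest set of LHY at 11.64 and 11.57, while a second LHY set gave a ratio of -0.62. The evening gene LUXC was at 0.15 and the light-sensing ZTL1 at 0.47. The pools mix times of day, so a change of phase and a change of level cannot be told apart. MYB134 is also listed as a synonym of MYB114 in the RefSeq gene table, while the array annotation keeps them as separate genes. The MYB134 set was at 11.75 and 11.68, a ratio of 0.07.

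Repeat measurement within a gene was possible for 20 MYB genes with more than 1 measured probe set. The brightest and second sets had the same sign in 16 of them, and their median absolute difference was 0.25 on the log2 scale. The SD per set was 0.26 for MYB genes and 0.30 for the 1619 genes of the whole table with at least 2 sets above the bound on both arrays. That spread holds differences between probes alone, since all sets were read on the same pair of arrays. All sets agreed in sign for 15 genes, among them MYB177, MYB73, MYB82, MYB133, MYB57, MYB60, MYB12A and MYB172. The sets of MYB57 lay close together, with ratios of -0.65, -0.70 and -0.83. Signs were mixed for MYB92, MYB139, MYB29, MYB180 and MYB83. For MYB139 the ratios were -0.64, 0.20 and -0.11, and for MYB92 they were 0.70, 0.86 and -0.01, the widest ranges among these 20 genes. Of the 7 genes beyond 2-fold, only MYB177 and MYB172 had a second measured set.

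**Figure D4:**
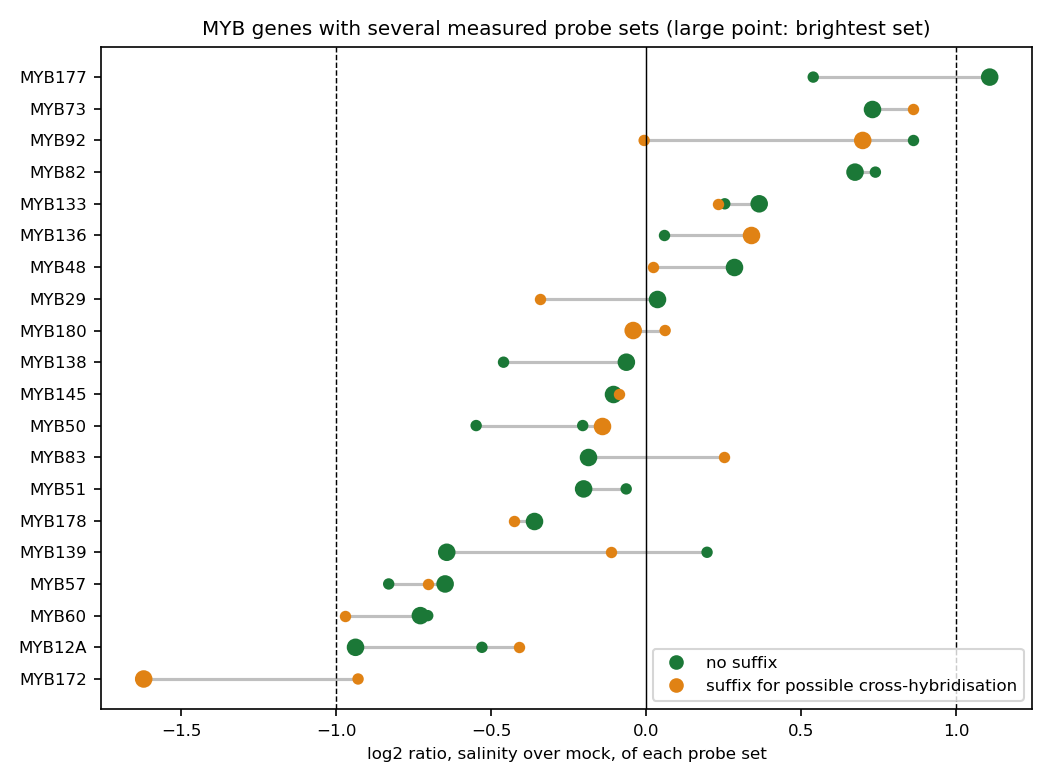
Log2 ratio of salinity over mock for every measured probe set of the 20 MYB genes with more than 1 such set. Large points are the brightest set, orange points carry a suffix for possible cross-hybridisation and dashed lines mark 2-fold. The sets of MYB57, MYB60 and MYB12A all lie left of 0, those of MYB73 and MYB82 right of 0, and those of MYB139 and MYB92 straddle it.

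Probe sets of shared clusters or of several genes limit what can be told of some MYB genes. How alike the sequences of these genes are was not examined. By probe set name, 12 members fall into 6 clusters of 2. MYB175 and MYB176 had ratios of 0.12 and -0.01, MYB179 and MYB79 0.19 and 0.13, and MYB112 and MYB50 0.20 and -0.14. MYB75 and MYB83 had -0.54 and -0.19, and MYB64 and MYB120 -0.31 and -0.44. In the RefSeq gene table MYB120 is a synonym of MYB64, so these may be 1 gene. MYB97 and MYB164 were the cluster with the wide difference given above. A further 15 probe sets list several genes with a MYB gene among them and were no members. Of these 13 were measured, and apart from the set of MYB184 and MYB84 the other 12 had ratios between -0.22 and 0.20. In the RefSeq gene table MYB129 is a synonym of MYB128 and MYB169 of MYB98, so sets listing either pair may read 1 gene. Sets of MYB129 and MYB128 gave ratios from -0.16 to 0.20, beside 0.35 for the set of MYB128 alone. For 6 of the measured members, MYB172 and MYB176 among them, every measured set carries a suffix for possible cross-hybridisation.

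MYB176, MYB73, MYB175, MYB50 and MYB145 had the 5 brightest probe sets of the family by mean signal, and by those sets the ratios of the 4 other than MYB73 lay between -0.14 and 0.12. The MYB50 value of -0.14 comes from a suffix-marked set, and its set without a suffix, at 11.16 and 11.71, gave -0.55. The 23 measured members not named by the rule on named genes had log2 ratios from -0.43 to 0.35, with 10 above 0 and 13 below. Among the 56 members with a position in the RefSeq table, none lies next to another in the order of protein-coding genes, and the other 9 could not be placed.

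MYB genes were set beside other families of transcription factors. WRKY factors, known for defence and stress responses, had a median log2 ratio of -0.02 over 52 measured genes, with 1 at least 2-fold higher (WRKY64, at least 3.18-fold) and 5 lower. The lowest was WRKY55, at 6.63 in the salinity pool against 8.70 in the mock pool. bZIP factors, among them activators of abscisic acid responsive genes, had a median of 0.21 over 56 genes, with 6 higher and 1 lower. They ran from BZIP50 (7.45 and 8.86) to BZIP71 (11.68 and 9.61). NAC factors had a median of 0.28 over 15 genes, with 3 higher and none lower, from NAC6 (10.07 and 10.92) to NAC4 (12.77 and 9.99). NAC4 and NAC27 (12.61 and 9.98), both among the 3, are read by sets of the same cluster with nearly equal signals, and without suffix-marked sets 2 of 13 NAC genes were higher. The share beyond 2-fold either way was 11.7% for MYB genes, 11.5% for WRKY, 12.5% for bZIP and 20% for NAC, beside 10.7% of all measured genes. No difference between families was tested.

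**Figure D5:**
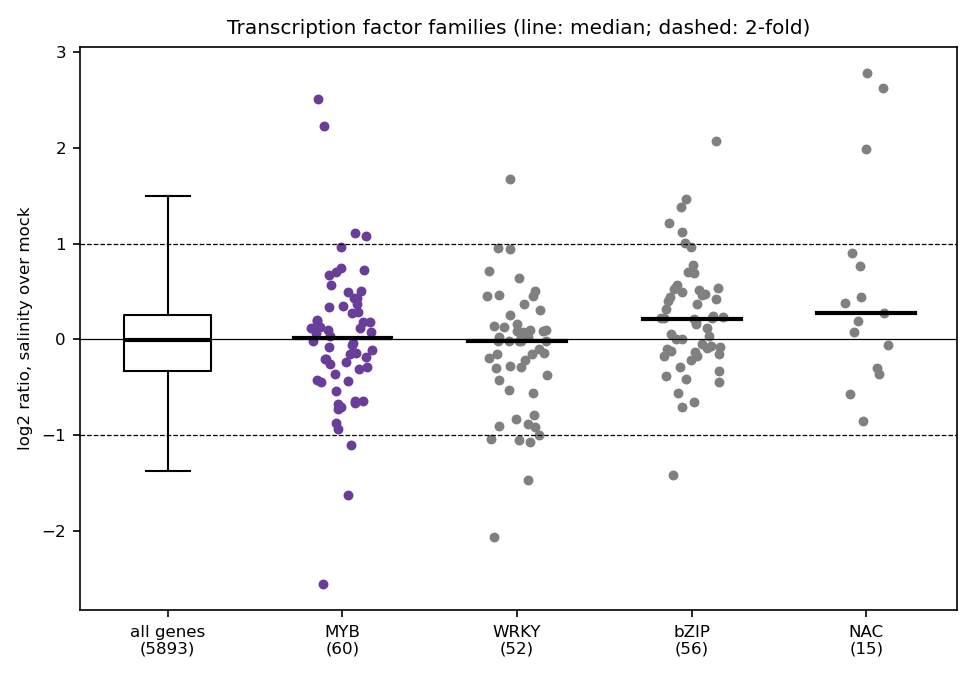
Log2 ratio of salinity over mock for 60 MYB, 52 WRKY, 56 bZIP and 15 NAC genes (1 point per measured gene, black line at the median, dashed lines at 2-fold) beside all 5893 measured genes. The box spans the quartiles and its whiskers leave out 2.5% of genes on each side. The MYB and WRKY medians lie at 0.01 and -0.02, those of bZIP and NAC at 0.21 and 0.28.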

How the data were processed

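Total RNA pools of salt-treated and mock-treated seedlings were biotin-labelled, and each was hybridised to 1 Affymetrix soybean array, per the labels' protocols. The deposited values are log2 signals that the authors made with MAS5, per the submitters' processing notes. Its version is not given here, since no label states it. The 2% trimmed means of unlogged signals (498.8 for salinity, 498.5 for mock) show that the deposited arrays share a scale, and no further normalization was applied. The lowest values are listed at 0. MAS5 ratios of dim probe sets are less precise, and the number of arrays limits the precision.

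Groups came from the labels. The log2 ratio is salinity minus mock, with signals floored at the bound. Gene names came from the platform annotation and, for synonyms, the RefSeq table of assembly Glycine_max_v4.0, which held 57 of 66 MYB gene identifiers. MYB145 has 2 identifiers and was kept as 1 gene. Of the soybean probe sets, 8677 have 1 gene, 370 several and 28546 none. Named genes were the 12 highest and 12 lowest above the bound on both arrays, those above it on 1 array, the 5 brightest, any with a set 2-fold from its brightest set (none was found) and those with a studied role. The highest and lowest gene of a comparison list could be named too. Other genes of these lists were named as examples, with their values seen. SAT1 was left out of the clock list, since its synonym GIP3 matched by letters alone. No protein or promoter sequence was used here, so the subgroups and promoter motifs that had been planned were not analysed here. The members and lists were chosen with earlier results of these data known. Computation used Python 3.11.15 with pandas 2.3.3, numpy 2.4.6 and statsmodels 0.14.6, and was tested on simulated data.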

Additional observations from a re-analysis of the deposited data

How the results depend on the processing

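The 9 alternatives were loess, quantile normalization and median centring, a bound moved to the 90th or to the 99th percentile, unfloored log2(signal + 16), the omission of suffix-marked probe sets, the mean over probe sets, and, chosen after seeing the data, giving sets shared by several MYB genes to each member. Across them 3 to 5 MYB genes were at least 2-fold higher and 2 to 3 lower, and the median log2 ratio of the family lay between -0.07 and 0.06, so its sign is not settled. Of the 7 genes beyond 2-fold, 6 stayed so under each alternative that gave them a value. MYB177 fell to a log2 ratio of 0.82 with the mean over probe sets, and MYB172 had no measured set once suffix-marked sets were left out. MYB13 passed 2-fold (1.33) with log2(signal + 16), and MYB84 (4.03) with the shared set. Of 325 alternative values of named genes, 16 moved by more than the spread between probe sets, in 11 genes. MYB50 went to -0.55 without suffix-marked sets. MYB139 went to -0.19 with the mean over probe sets, and MYB12A to -0.63. MYB183 turned to -0.13 with its shared set. MYB97 ranged from -2.93 to -1.79 with the bound. The comparison lists that moved by over 1.5 times were the flavonoid genes 2-fold higher (5, and 1 without suffix-marked sets), bZIP genes lower (1, and 2 without those sets) and WRKY genes higher (1, and 0 at the 99th percentile bound). The scalings shifted the median of all genes by at most 0.026. No paired analysis was possible because each group has 1 array, and no array could be left out. Signals near the bound limit MYB13, MYB84, MYB101, MYB150 and MYB164.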

Other observations

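The RefSeq gene table gives a MYB synonym to 5 further genes that the array annotation lists under other symbols. LOC547460, listed there as GmMYB15, had a log2 signal of 7.14 in the salinity pool against 4.84 in the mock pool, which is below the bound. It was at least 4.58-fold higher on the salinity array by its brightest set, and its other sets were below the bound on both arrays. LOC778176 (MYB88) had a log2 ratio of -0.30, LOC778182 (MYB160) -0.10 and 1-3-1A (MYB69) -0.32. LCL3, also listed as MYB156, is given with the clock genes. CHI3A1 was listed with the shared early steps by its chalcone isomerase family symbol alone, which does not show that its product is an active enzyme. It was lower in the salinity pool by all 4 of its probe sets. The set that passed both bounds gave a ratio of -1.37, with a salinity signal of 4.92, just above the bound of 4.88. The other 3 passed the mock bound alone, so that their ratios, -1.47 to -1.24, are limits. The family members CHIA1 (14.14 in the salinity pool against 12.92 in the mock pool) and CHI1A (13.47 and 12.42) were 2.34-fold and 2.06-fold higher. CHIA1 and CHI1A are each read by 1 set, which carries the suffix for possible cross-hybridisation.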
